A study of Mus musculus with 407 samples.

Results

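The genes described here are 37 genes of glycolysis and glycogen metabolism, taken by symbol from a fixed list, among the 24458 gene symbols of the count tables. All 37 were found, each on a single line of every table, and all 37 passed the filter on low counts in every comparison. Skeletal muscle RNA of C57BL/6J mice, an inbred wild-type strain without transgene or treatment, was sequenced to follow muscle ageing. The 407 libraries came from the diaphragm, the main breathing muscle, and from the gastrocnemius, soleus and tibialis anterior of the hindlimb, in females and males aged 6, 12, 18, 21, 24 or 27 months. Groups held 6 to 10 libraries, with 8 at 6 months and 10 at 27 months in each muscle and sex. Mice were bought at different ages, each animal was sampled at 1 age, and an age group was collected on a single day, so age and day of collection cannot be told apart. The labels do not say which libraries share a mouse, and p values measure the spread between libraries.

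Glycolysis splits glucose into pyruvate and yields ATP without oxygen, and glycogen is the store of glucose from which a working muscle fibre draws. Glucose enters a fibre through transporters (Slc2a1, Slc2a4) and is trapped by hexokinase (Hk1, Hk2). Phosphofructokinase (Pfkm, Pfkl, Pfkp) commits it to glycolysis, the Pfkfb enzymes set the level of its activator, fructose 2,6-bisphosphate, and lactate dehydrogenase (Ldha, Ldhb) converts pyruvate and lactate into each other. Glycogen is built by Ugp2, glycogenin (Gyg), glycogen synthase (Gys1) and the branching enzyme (Gbe1), and broken down by muscle glycogen phosphorylase (Pygm), which phosphorylase kinase (Phka1, Phkb, Phkg1) switches on. Fast-twitch fibres are known for high levels of glycolytic enzymes, slow-twitch fibres for oxidative metabolism. In mice the soleus is rich in slow fibres, and the gastrocnemius and tibialis anterior are mostly fast.

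The libraries held 38583802 to 300089909 counts assigned to genes, with a median of 72766895 and a second highest total of 104836980. The summed level of 11 slow-fibre genes had medians of 23999 and 16344 CPM (counts scaled to library size) in female and male soleus and of 161 and 109 in tibialis anterior. Fast-fibre genes (13 genes) had medians between 18710 and 30393 CPM in soleus and diaphragm and between 76575 and 94355 in the other muscles. Of 98 diaphragm libraries, 6 stood apart: male 6 months replicate 2, male 27 months replicate 6, female 6 months replicate 2, female 21 months replicate 0, female 24 months replicate 3 and female 27 months replicate 0. In these 6 libraries skeletal actin (Acta1) lay between 105 and 1741 CPM, against 4421 to 8537 in the other diaphragm libraries. Mitochondrial ribosomal RNA took 0.115% to 0.474% of counts in the 6 (median 0.249%), against 0.00077% to 0.405% (median 0.00267%) in the others. The medians of this measure lay far apart, while the ranges overlapped. The 37 genes took 0.428% to 0.925% of counts in the 6 libraries, against 0.774% to 1.448% in the other diaphragm libraries. In 2 male diaphragm libraries, 21 months replicate 3 and 27 months replicate 6, liver transcripts summed to 39235 and 13121 CPM, where the medians of the 8 combinations of muscle and sex were 5.98 to 107 CPM. Mesothelial genes summed to medians of 127 and 145 CPM in female and male diaphragm and 0.367 to 0.851 in the limb muscles. Macrophage genes summed to medians of 416 and 428 CPM in diaphragm and 49.6 to 118 in the limb muscles, fibroblast genes to 1837 and 1934 against 488 to 908, endothelial genes to 423 and 402 against 195 to 264, blood genes to 382 and 476 against 97.6 to 190.1, white adipocyte genes to 852 and 694 against 242 to 492, brown adipocyte genes to 2.60 and 3.15 against 0.0764 to 3.19 and Schwann cell genes to 50.8 and 51.5 against 23.5 to 56.8. Results that use the diaphragm are given with and without the 6 libraries where the call changed, and the cause of their difference was not tested.

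The promoters of 6 members are shown to set genes of opposite direction side by side: among the 24 members with a single RefSeq start, they are the 4 with the most negative and the 2 with the most positive mean log2 difference of soleus from gastrocnemius. Each line gives the 250 bases before the RefSeq transcription start (GRCm38.p6) of a gene, from 5′ to 3′ on its own strand. The first 4 genes were lower in soleus and the last 2 higher. Capitals mark matches, on either strand, to the E-boxes CAGCTG and CACGTG and to the hypoxia response element core ACGTG, which overlaps CACGTG. The estrogen-related receptor element TCAAGGTCA and the MEF2 motif had no match in these 6 windows.
Phkg1: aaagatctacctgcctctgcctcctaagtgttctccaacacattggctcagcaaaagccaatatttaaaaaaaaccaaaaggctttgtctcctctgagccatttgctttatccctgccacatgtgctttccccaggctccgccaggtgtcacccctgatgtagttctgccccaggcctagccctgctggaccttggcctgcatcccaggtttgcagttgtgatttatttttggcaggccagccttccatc
Fbp2: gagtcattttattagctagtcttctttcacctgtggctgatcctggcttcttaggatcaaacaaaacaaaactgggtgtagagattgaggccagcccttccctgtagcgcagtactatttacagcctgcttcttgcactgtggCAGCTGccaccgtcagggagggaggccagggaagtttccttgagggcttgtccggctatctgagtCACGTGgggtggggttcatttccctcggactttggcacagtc
Eno3: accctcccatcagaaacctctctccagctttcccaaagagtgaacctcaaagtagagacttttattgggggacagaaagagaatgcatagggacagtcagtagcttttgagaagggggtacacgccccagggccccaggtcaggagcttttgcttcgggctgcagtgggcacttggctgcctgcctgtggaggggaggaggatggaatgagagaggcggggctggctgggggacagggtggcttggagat
Pygm: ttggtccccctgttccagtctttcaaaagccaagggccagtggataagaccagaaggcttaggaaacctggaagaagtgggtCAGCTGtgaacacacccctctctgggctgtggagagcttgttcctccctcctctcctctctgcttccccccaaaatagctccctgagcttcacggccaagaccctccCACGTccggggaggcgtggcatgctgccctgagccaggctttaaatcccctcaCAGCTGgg
Ldhb: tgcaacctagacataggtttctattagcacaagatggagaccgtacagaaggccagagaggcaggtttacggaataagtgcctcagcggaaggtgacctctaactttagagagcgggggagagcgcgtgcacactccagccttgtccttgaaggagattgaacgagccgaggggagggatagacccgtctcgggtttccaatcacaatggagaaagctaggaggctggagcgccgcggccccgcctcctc
Gbe1: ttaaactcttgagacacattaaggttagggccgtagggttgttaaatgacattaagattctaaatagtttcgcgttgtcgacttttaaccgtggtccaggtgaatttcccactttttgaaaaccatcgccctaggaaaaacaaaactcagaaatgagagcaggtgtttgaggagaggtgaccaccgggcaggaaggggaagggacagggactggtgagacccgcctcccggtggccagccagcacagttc

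These windows lie at chr5:129879089-129879338 (Phkg1, minus strand), chr13:62858401-62858650 (Fbp2, minus strand), chr11:70656926-70657175 (Eno3, plus strand), chr19:6384158-6384407 (Pygm, plus strand), chr6:142507958-142508207 (Ldhb, minus strand) and chr16:70313699-70313948 (Gbe1, plus strand). The Fbp2 window held CAGCTG at position -107 and CACGTG at -42, counted from the start. The Pygm window held CAGCTG at -168 and -8 and ACGTG on the other strand at -61. The windows of Phkg1, Eno3, Ldhb and Gbe1 held no match. Of 32851 RefSeq windows of this length, 13.0% held CAGCTG, 6.02% CACGTG, 16.6% ACGTG, 0.387% TCAAGGTCA and 2.92% the MEF2 motif. Of the 53 windows of the 35 members that matched RefSeq, 12 held CAGCTG, 6 CACGTG, 19 ACGTG, 0 TCAAGGTCA and 3 MEF2. A match in these letters is a description and was not tested for binding.

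The 37 genes took a larger share of counts in the gastrocnemius and tibialis anterior than in the soleus and diaphragm. The median share was 3.380% in female and 3.323% in male gastrocnemius, 3.108% and 3.034% in tibialis anterior, 1.196% and 1.292% in soleus, and 1.256% and 1.297% in diaphragm. The lowest gastrocnemius library (2.714%) and the lowest tibialis anterior library (2.398%) were above the highest soleus library (1.470%) and the highest diaphragm library (1.448%). In bulk RNA, fewer fibres of a type and less RNA per fibre cannot be told apart.

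Levels were compared between genes only per length, as the median CPM per kilobase of exon over all libraries of a muscle and sex. Gapdh, the dehydrogenase of the middle of the pathway, was the highest of the 37 in each of the 4 muscles in each sex, with 1289 to 5433 CPM per kilobase. Aldolase (Aldoa) ranged from 458 in female diaphragm to 3444 in female tibialis anterior, muscle phosphorylase (Pygm) from 329 in female diaphragm to 2539 in male gastrocnemius, and muscle enolase (Eno3) from 183 to 1802. The non-muscle isozymes were low: Hk1 ranged from 1.12 to 2.10, Pfkl from 1.04 to 2.43 and Pfkp from 1.05 to 2.70 CPM per kilobase. Their muscle counterparts were far higher per length, with Hk2 at 56.0 to 92.7 and Pfkm at 170 to 884 CPM per kilobase. The insulin-responsive transporter Slc2a4 (72.6 to 111) likewise exceeded Slc2a1 (2.66 to 6.41), the transporter found in most cells.

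**Figure D1:**
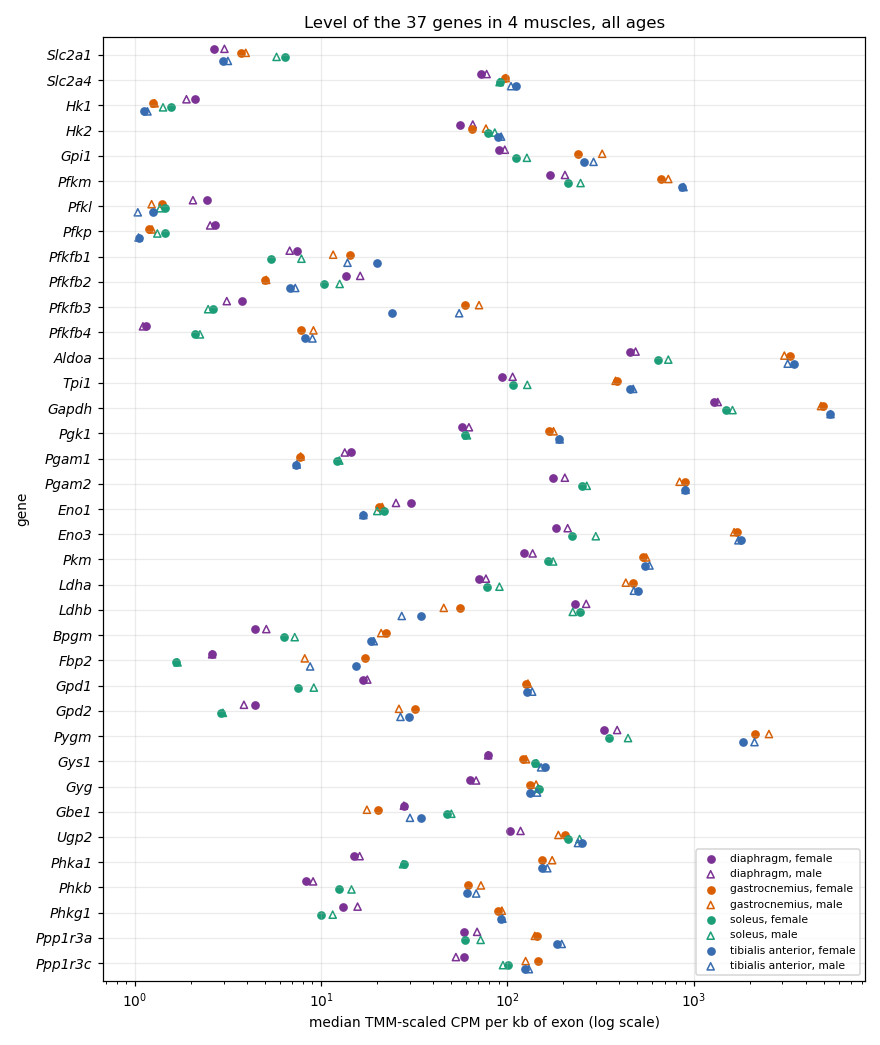
Median level of each of the 37 genes per kilobase of exon (horizontal log axis, CPM per kilobase) in 4 muscles, with females as filled circles and males as open triangles. Gapdh lies furthest to the right in every muscle, and Hk1, Pfkl and Pfkp lie near 1 to 3 CPM per kilobase.

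The muscles were compared within each sex as the mean over the 6 ages, with edgeR's quasi-likelihood test and Benjamini-Hochberg adjustment over all genes tested. Between soleus and gastrocnemius, 23 members were lower and 11 higher in soleus in females, and 24 lower and 9 higher in males, at an adjusted p below 0.05. Of all genes tested, 74.6% in females and 73.0% in males passed this threshold. The members' median log2 difference was -1.50 in females and -1.52 in males, where the medians of all genes were 0.0046 and -0.011, and 28 and 27 members also differed by more than 1.5-fold, as did 29.3% and 30.9% of all genes. With the 6 diaphragm libraries left out, which enter this fit through its scaling and spread, Eno1 in females and males, Slc2a4 in females and Hk2 and Pfkl in males also passed. Fast-fibre genes moved with this result: 12 of 13 in females and 11 of 13 in males were lower in soleus, and 11 of 11 slow-fibre genes were higher in each sex. Their part in the members' differences was not tested.

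The widest gap was in Pfkfb3, a kinase that makes the activator of phosphofructokinase. Pfkfb3 had a lowest, median and highest level of 94.7, 326 and 674 CPM in female gastrocnemius (n = 52) and of 7.85, 14.6 and 33.9 in female soleus (n = 51), a log2 difference of -4.34 (SE 0.12). In males it had 74.8, 390 and 702 CPM in gastrocnemius (n = 52) and 6.30, 13.7 and 37.3 in soleus (n = 52), a log2 difference of -4.67 (SE 0.14). No soleus library reached the lowest gastrocnemius library in either sex. The other members of this family went different ways: Pfkfb4 was lower in soleus (log2 -1.88 in females and -2.10 in males), Pfkfb1 was lower (-1.33 and -0.61), and Pfkfb2 was higher (1.11 and 1.28).

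The glycerol phosphate shuttle, which carries reducing power from glycolysis into mitochondria through cytosolic Gpd1 and mitochondrial Gpd2, came next. Gpd1 lay at 277, 360 and 479 CPM (lowest, median, highest) in female gastrocnemius and at 13.6, 21.6 and 36.6 in female soleus, a log2 difference of -3.97 (SE 0.081). In males the difference of Gpd1 was -3.77 (SE 0.084), from 213, 369 and 583 CPM to 13.5, 26.2 and 52.7. Gpd2 lay at 115, 194 and 264 CPM in female gastrocnemius and 12.6, 17.7 and 27.3 in female soleus, with log2 differences of -3.43 (SE 0.065) in females and -3.03 (SE 0.047) in males. The 2 muscles did not overlap for either gene in either sex.

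Among enzymes of glycogen breakdown, the catalytic subunit of phosphorylase kinase (Phkg1) differed most. Phkg1 lay at 163, 212 and 261 CPM in female gastrocnemius and 17.0, 23.8 and 38.2 in female soleus, with log2 differences of -3.10 (SE 0.045) in females and -2.92 (SE 0.051) in males. The regulatory subunits Phka1 (-2.45 and -2.63) and Phkb (-2.27 and -2.26) and the phosphorylase Pygm (-2.59 and -2.52) were lower in soleus as well. The genes that build glycogen (Gbe1, Gys1, Ugp2 and Gyg) differed little or the other way. Ppp1r3a, which targets a phosphatase to glycogen, and Ppp1r3c had lower medians in soleus than in gastrocnemius. For Ppp1r3a these were 412 against 1007 CPM in females and 501 against 979 in males. For Ppp1r3c they were 276 against 397 CPM in females and 258 against 342 in males. The branching enzyme Gbe1 was higher in soleus, with 56.2, 86.2 and 136 CPM in female gastrocnemius and 138, 202 and 258 in female soleus, a log2 difference of 1.24 (SE 0.047) in females and 1.48 (SE 0.046) in males. The lowest female soleus library had more Gbe1 than the highest female gastrocnemius library. Glycogen synthase Gys1 differed by 0.18 and 0.17, Ugp2 by 0.09 and 0.37, and glycogenin Gyg by 0.17 and 0.01, the last of which did not pass in males (adjusted p = 0.737, edgeR).

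In the enolase, mutase and phosphofructokinase families the muscle form was lower in soleus, while in the hexokinases it was not. Muscle enolase Eno3 had log2 differences of -2.91 (SE 0.044) in females and -2.41 (SE 0.057) in males, with 2062, 2682 and 3233 CPM in female gastrocnemius and 273, 350.1 and 479 in female soleus. Ubiquitous Eno1 differed by 0.09 in females and -0.11 in males and did not pass (adjusted p = 0.163 and 0.158, edgeR). Muscle phosphoglycerate mutase Pgam2 differed by -1.80 and -1.64, while Pgam1 was higher in soleus by 0.60 and 0.69. Pfkm differed by -1.64 and -1.55, while Pfkl did not pass (0.07 and 0.13) and Pfkp was higher by 0.27 and 0.14. Hk1 was higher in soleus by 0.30 and 0.10, and Hk2 by 0.26 in females, with 0.12 in males (adjusted p = 0.0536, edgeR). Slc2a1 was higher in soleus by 0.78 and 0.59, while Slc2a4 differed by -0.08 in females (adjusted p = 0.145) and was lower by 0.15 log2 units in males, with fold 0.902 (adjusted p = 0.0365, edgeR), which did not pass with DESeq2 (adjusted p = 0.0917) or limma-voom (0.092). In males Hk1 and Pfkp did not pass without the libraries over 100 liver CPM (adjusted p = 0.0501 and 0.0567, edgeR).

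The lactate dehydrogenases went in opposite directions between these muscles. Ldha, the form prevalent in fast muscle, lay at 682, 901 and 1130.3 CPM in female gastrocnemius and 116, 147 and 193 in female soleus (log2 -2.62, SE 0.039), and differed by -2.19 (SE 0.045) in males. Ldhb, the form prevalent in heart and slow muscle, lay at 45.4, 72.3 and 96.2 CPM in female gastrocnemius and 217, 320 and 472 in female soleus (log2 2.14, SE 0.053), and differed by 2.23 (SE 0.063) in males. Neither gene's libraries overlapped between the female muscles. Fbp2, the muscle bisphosphatase that runs the phosphofructokinase step backward, lay at 15.6, 23.4 and 36.9 CPM in female gastrocnemius and 1.06, 2.27 and 4.11 in female soleus. Its log2 difference was -3.37 (SE 0.078) in females and -2.26 (SE 0.080) in males.

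**Figure D2:**
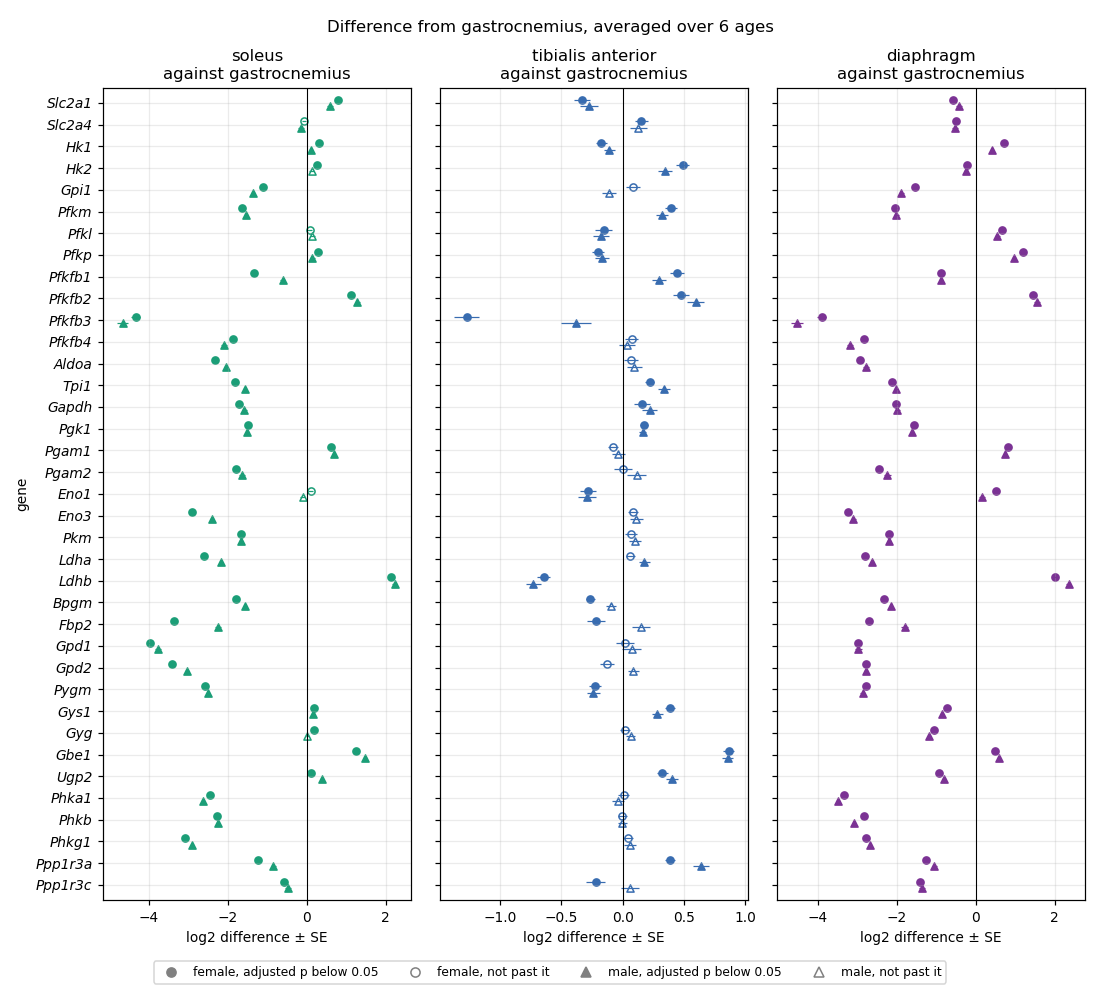
Log2 difference of each gene from the gastrocnemius, averaged over 6 ages, in soleus, tibialis anterior and diaphragm (horizontal axes of different range, bars are SE), with filled symbols for an adjusted p below 0.05. Pfkfb3, Gpd1 and Gpd2 lie furthest to the left in soleus, Ldhb and Gbe1 to the right, and most genes lie near 0 in tibialis anterior.

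Between tibialis anterior and gastrocnemius, 3 members in females and 4 in males passed and differed by more than 1.5-fold, against 15.0% and 14.2% of all genes. By the test alone 12 members were higher and 11 lower in tibialis anterior in females, and 12 higher and 8 lower in males, where 57.5% and 55.1% of all genes passed. Pfkfb3 was lower in tibialis anterior in females (log2 -1.27) and males (-0.38). Gbe1 was higher by 0.86 in each sex, Ldhb differed by -0.64 and -0.73, and Ppp1r3a, which targets a phosphatase to glycogen, by 0.39 and 0.64.

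The diaphragm had lower levels of most members than the fast limb muscles. Against the diaphragm, 29 members were higher and 8 lower in gastrocnemius in each sex (86.6% of all genes passed in females, 85.3% in males), and 30 were higher and 7 lower in tibialis anterior in each sex (88.4% and 86.6%). Pfkfb3 (3.89 in females and 4.52 in males), Phka1 (3.34 and 3.48), Eno3 (3.23 and 3.10) and Gpd1 (2.97 in each) had large log2 differences of gastrocnemius from diaphragm. Ldhb (-2.00 and -2.36), Pfkfb2 (-1.45 and -1.56), Pfkp (-1.20 and -0.97) and Pgam1 (-0.83 and -0.76) went the other way. Against the soleus, 23 members in females and 25 in males were higher in soleus and 12 and 10 lower (83.5% and 80.4% of all genes), among them Slc2a1 (1.34 and 1.02), Gyg (1.22 and 1.19), Gpd1 (-1.01 and -0.80) and Pfkp (-0.93 and -0.83). Against the tibialis anterior, soleus was lower for 27 members and higher for 10 in females and lower for 26 and higher for 9 in males (75.7% and 74.0%). DESeq2-type size factors moved the median of all genes in the male contrasts with diaphragm from -0.021 to -0.197 (gastrocnemius), from 0.020 to -0.120 (soleus) and from -0.00021 to -0.240 (tibialis anterior), so log2 differences of that size depend on the scaling. With it the share of genes higher among those that passed went from 51.9% to 40.1% in male soleus against diaphragm, from 50.4% to 38.4% in male tibialis anterior against diaphragm and from 53.3% to 37.5% in male tibialis anterior against gastrocnemius.

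The change with age was tested within each muscle and sex as 27 against 6 months. Over the 8 combinations of muscle and sex, 32 of the 37 genes rose or fell in at least 1, and Hk1, Hk2, Pfkp, Eno1 and Ppp1r3c in none, where 62.0% of the 14182 genes tested in all 8 passed in at least 1. Gbe1 rose in 5 of 8 and had a positive log2 fold change in 8 of 8, from 0.025 to 0.63. Phkg1 fell in 5 of 8 and had a negative one in 8 of 8, from -0.64 to -0.082. Slc2a1 rose in 4, and Slc2a4, Ldha, Pygm and Gyg each fell in 3. Pfkfb1, Pkm, Fbp2 and Ugp2 were called in both directions in different muscles or sexes.

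**Figure D3:**
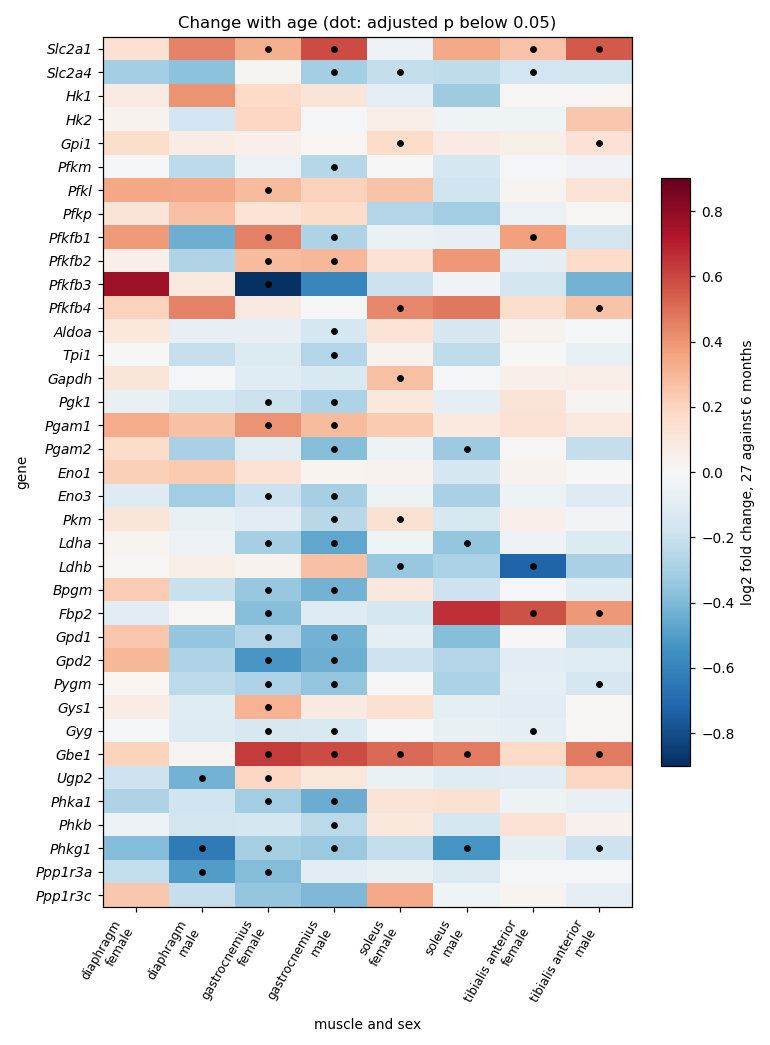
Log2 fold change at 27 against 6 months (colour, red higher at 27 months) of each gene in the 8 combinations of muscle and sex, with a dot where the adjusted p was below 0.05. Dots gather in the female and male gastrocnemius, where 21 and 22 genes carry them, and Gbe1 and Slc2a1 are red there in each sex.

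In the gastrocnemius, 8 members rose and 13 fell in females and 4 rose and 18 fell in males, where 29.3% and 23.3% of all genes passed. The members' median log2 fold change was -0.095 in females and -0.16 in males, beside 0.019 and -0.0029 over all genes tested, and 2 members in females and 0 in males also changed by more than 1.5-fold (4.98% and 5.41% of all genes). Fibre markers moved beside this result. Of 13 fast-fibre genes, 11 fell in females and 9 in males, and of 11 slow-fibre genes, 10 rose in females and 6 in males. The summed slow-fibre level of female gastrocnemius was 939.9 to 1507 CPM at 6 months and 1607 to 2739 at 27 months, and that of males 550.4 to 808 and 499 to 1551. The summed fast-fibre level had medians of 99236 and 88514 CPM in females and 99839 and 88763 in males. The part of fibre makeup in the members' changes was not tested.

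Gbe1, the branching enzyme (gene at chr16:70313949-70569716 of GRCm38), rose in the gastrocnemius of each sex. In females it had 56.2, 61.4 and 64.1 CPM (lowest, median, highest) at 6 months and 70.8, 95.7 and 114 at 27 months, and no 27-month library fell within the 6-month range. Its log2 fold change was 0.63 (SE 0.080, adjusted p = 2.73e-08, edgeR). In males it had 53.7, 59.0 and 76.5 CPM at 6 months and 74.3, 88.6 and 115 at 27 months, which overlapped at the margin (log2 0.58, SE 0.082, adjusted p = 3.09e-07, edgeR). Other genes of glycogen synthesis moved less: Gys1 rose in females (log2 0.32), Ugp2 rose in females (0.18), and Gyg fell in females and males (-0.14 in each).

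Pfkfb3 (chr2:11471433-11554077) had the largest fall of the members in female gastrocnemius. Its levels were 287, 522 and 592 CPM at 6 months and 155, 256 and 399 at 27 months, with a log2 fold change of -0.89 (SE 0.22, adjusted p = 0.00133, edgeR), and the groups overlapped. Gpd2, the mitochondrial shuttle enzyme, fell in each sex without overlap. Its levels in females were 210.2, 220.4 and 264 CPM at 6 months and 115, 157 and 185 at 27 months (log2 -0.53, SE 0.064, adjusted p = 8.44e-09, edgeR), and its log2 fold change in males was -0.44. Gpd1 fell as well (log2 -0.27 in females and -0.43 in males).

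Glucose uptake genes moved apart in male gastrocnemius. Slc2a1 (chr4:119108711-119137983) had 8.52, 9.53 and 13.0 CPM at 6 months and 12.5, 13.8 and 20.3 at 27 months (log2 0.58, SE 0.10, adjusted p = 2.51e-05, edgeR). The groups overlapped only at their margins. Slc2a4 fell, from 278, 305 and 369 CPM to 182, 248 and 276, without overlap (log2 -0.31). In females Slc2a1 rose as well (0.32).

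Among the glycolytic enzymes of male gastrocnemius, Ldha (chr7:46841475-46855627) had 892, 952 and 1027 CPM at 6 months and 474, 709 and 834 at 27 months. The groups did not overlap, and its log2 fold change was -0.47 (SE 0.066, adjusted p = 3.84e-07, edgeR). Pgam2 (-0.38), Eno3 (-0.30), Pgk1 (-0.28), Tpi1 (-0.26), Pfkm (-0.25), Pkm (-0.25) and Aldoa (-0.16) also fell in males, and Pgam1 (0.28) and Pfkfb2 (0.30) rose. In females Ldha (-0.30), Pgk1 (-0.19) and Eno3 (-0.19) fell, and Pgam1 (0.40), Pfkfb2 (0.29) and Pfkl (0.29) rose. Pgam1 had no overlap in females, from 11.2, 11.9 and 12.3 CPM to 12.7, 15.3 and 18.3. Bpgm, which makes the bisphosphoglycerate of red cells and stands beside the glycolytic chain, fell in each sex (-0.34 and -0.43), and Fbp2 fell in females (-0.38).

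Glycogen breakdown genes fell in the gastrocnemius of each sex. Phka1, the muscle regulatory subunit of phosphorylase kinase, had 1112, 1231 and 1293 CPM at 6 months and 778, 871 and 1094 at 27 months in males, without overlap (log2 -0.45, SE 0.059, adjusted p = 1.2e-07, edgeR), and a log2 fold change of -0.32 in females. Phkg1 fell in females (-0.30) and males (-0.33), and so did Pygm (-0.28 and -0.35), with no overlap in males for either gene. Phkb fell in males (-0.24). Apart from these breakdown genes, Ppp1r3a, which targets a phosphatase to glycogen, fell in females (-0.39).

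Pfkfb1, the X-linked member of the Pfkfb family (chrX:150588229-150643878), changed in opposite directions in the sexes. In female gastrocnemius it had 18.8, 22.8 and 26.3 CPM at 6 months and 25.6, 31.4 and 35.3 at 27 months (log2 0.45, SE 0.082, adjusted p = 3.1e-05, edgeR). In male gastrocnemius it had 23.8, 27.2 and 33.2 CPM at 6 months and 18.4, 22.1 and 25.2 at 27 months (log2 -0.28, SE 0.059, adjusted p = 0.00033, edgeR). The difference between the sexes in this change was 0.71 on the log2 scale (SE 0.10, adjusted p = 1.78e-06, edgeR interaction of sex and age, where 1.6% of all genes passed). In tibialis anterior the same interaction of Pfkfb1 was 0.53 (SE 0.13, adjusted p = 0.0126, edgeR; 1.73% of all genes), where it rose in females (0.37) and had -0.16 in males (adjusted p = 0.245). The interaction in tibialis anterior did not pass without the libraries over 100 liver CPM (0.50, adjusted p = 0.0564, edgeR). No other member passed for the interaction of sex and age in any of the 4 muscles, where 0.855% of all genes passed in soleus and 0.0% in diaphragm.

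Every age was set against the same 6-month libraries, so these comparisons share them. At 12 months 0 members passed in any muscle or sex by edgeR, the only tool whose calls at that age are given here. Of all genes, 0.579% passed in female and 1.08% in male gastrocnemius, and 0.221% and 0.117% in soleus. In tibialis anterior 0.527% and 0.338% passed, and in diaphragm 0.0% and 0.0622%. An unadjusted p below 0.05 was reached at 12 months by 1 member in female and 7 in male gastrocnemius, 5 and 2 in soleus, 2 and 1 in tibialis anterior and 0 and 1 in diaphragm. Of all genes tested, 1241 of 15376 in female and 1692 of 15227 in male gastrocnemius reached it. In soleus these were 1429 of 15358 and 1068 of 15351, and in tibialis anterior 1191 of 14601 and 1100 of 14487. In diaphragm they were 259 of 16193 and 1437 of 16075. In female gastrocnemius 2 rose at 18 months (Pfkfb1, 0.46, and Gbe1, 0.48; 9.6% of all genes passed), 5 rose and 10 fell at 21 months (15.8%), and 7 rose and 10 fell at 24 months (19.2%). In male gastrocnemius 2 rose at 18 months (Pfkfb2, 0.42, and Gbe1, 0.35; 2.99%), 2 rose and 9 fell at 21 months (10.2%), and 2 rose and 16 fell at 24 months (14.6%). Mean Gbe1 in female gastrocnemius was 61.3 ± 2.5 CPM (SD, n = 8) at 6 months, 72.5 ± 5.4 (n = 8) at 12, 84.8 ± 7.2 (n = 8) at 18, 99.7 ± 15.1 (n = 8) at 21, 98.6 ± 16.9 (n = 10) at 24 and 94.4 ± 14.3 (n = 10) at 27 months. Mean Ldha in male gastrocnemius went from 955 ± 45.6 CPM (SD, n = 8) at 6 months to 849 ± 41.3 (n = 8) at 18 and 686 ± 109 (n = 10) at 27 months.

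**Figure D4:**
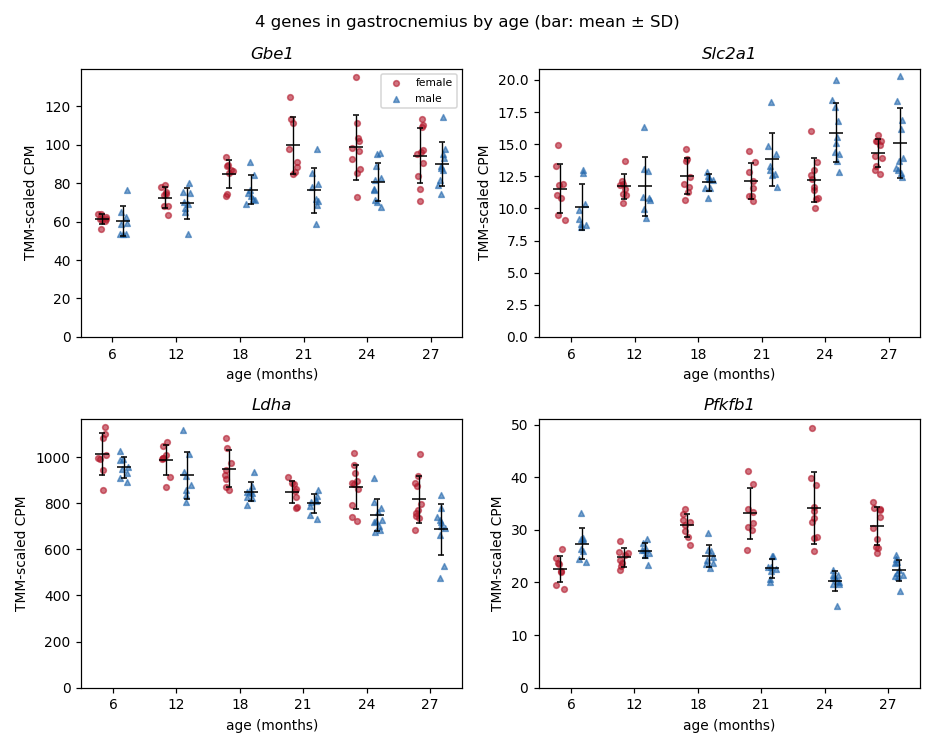
Level of Gbe1, Slc2a1, Ldha and Pfkfb1 in each gastrocnemius library (vertical axis, TMM-scaled CPM) by age in months, females and males apart, with the mean and SD per group. Gbe1 and Slc2a1 lie higher at 27 than at 6 months in each sex, Ldha lower, and Pfkfb1 higher in females and lower in males.

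In the soleus 5 members rose and 2 fell in females (18.8% of all genes passed) and 1 rose and 3 fell in males (2.85%). Gbe1 rose in each sex without overlap. It had 138, 149 and 165 CPM at 6 months and 179, 219 and 247 at 27 months in females (log2 0.51, SE 0.067, adjusted p = 2.96e-07, edgeR). In males it had 161, 172 and 182 CPM at 6 months and 191, 243 and 281 at 27 months (log2 0.46, SE 0.080, adjusted p = 0.00021, edgeR). Fibre markers showed few changes here, with 2 of 13 fast-fibre and 1 of 11 slow-fibre genes higher in females and 0 in males.

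In female soleus Gapdh rose from 1627, 1867 and 2172 CPM to 2191, 2283 and 2459, without overlap (log2 0.27, SE 0.053, adjusted p = 0.000226, edgeR). Pfkfb4 rose from 5.23, 5.54 and 7.48 CPM to 6.21, 8.44 and 9.69 (log2 0.43, SE 0.11, adjusted p = 0.00288, edgeR), with overlap. Ldhb fell from 265, 325 and 472 CPM to 217, 267 and 341 (log2 -0.34, SE 0.096, adjusted p = 0.00873, edgeR), also with overlap. Gpi1 (0.17) and Pkm (0.14) rose and Slc2a4 (-0.21) fell. At 24 months 11 members rose and 1 fell in female soleus (23.3%), among them Ppp1r3c (0.48), Pfkl (0.38), Pgam1 (0.36) and Hk2 (0.26).

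In male soleus Phkg1 fell from 24.8, 35.9 and 45.1 CPM at 6 months to 14.0, 23.5 and 33.6 at 27 months (log2 -0.53, SE 0.15, adjusted p = 0.029, edgeR). Ldha fell from 155, 202 and 246 CPM to 115, 155 and 220.0 (log2 -0.35, SE 0.10, adjusted p = 0.047, edgeR). Pgam2 fell from 197, 257 and 299.7 CPM to 158, 196 and 249 (log2 -0.33, SE 0.092, adjusted p = 0.0345, edgeR). The ages overlapped for Phkg1, Ldha and Pgam2. The calls of Ldha and Pgam2 were lost without the libraries over 100 liver CPM (adjusted p = 0.0615 and 0.0507, edgeR). They were also lost with the replicate block (adjusted p = 0.0806 and 0.0652, edgeR), which across ages joins different mice of the same number.

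In the tibialis anterior 3 members rose and 3 fell in females (21.9% of all genes passed) and 5 rose and 2 fell in males (17.8%). In females Ldhb fell from 50.5, 67.8 and 75.4 CPM to 29.9, 39.3 and 52.2 (log2 -0.72, SE 0.11, adjusted p = 1.44e-06, edgeR), and only the margins overlapped. Fbp2 rose from 9.05, 16.2 and 18.3 CPM to 17.9, 22.2 and 24.9 (log2 0.57, SE 0.12, adjusted p = 0.000423, edgeR). Pfkfb1 rose from 27.7, 31.4 and 38.2 CPM to 31.9, 40.7 and 45.1 (log2 0.37, SE 0.083, adjusted p = 0.00088, edgeR). Slc2a1 rose from 8.10, 9.51 and 11.3 CPM to 9.36, 11.2 and 13.7 (log2 0.26, SE 0.090, adjusted p = 0.0324, edgeR), and Slc2a4 (-0.17) and Gyg (-0.089) fell. Slc2a1 did not pass without the libraries over 100 liver CPM (adjusted p = 0.0726, edgeR). Ldhb and Fbp2 had already passed at 18 months in females (-0.47 and 0.56; 4.53% of all genes). Of 11 slow-fibre genes 4 rose and 2 fell in females, and their part in these changes was not tested.

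In male tibialis anterior Slc2a1 rose from 6.26, 7.67 and 11.6 CPM to 9.49, 11.4 and 16.5 (log2 0.55, SE 0.11, adjusted p = 0.000328, edgeR). Gbe1 rose from 96.9, 119 and 129 CPM to 106, 150.1 and 223 (log2 0.47, SE 0.13, adjusted p = 0.00826, edgeR). Fbp2 rose from 9.46, 10.5 and 13.2 CPM to 9.59, 13.2 and 20.4 (log2 0.39, SE 0.13, adjusted p = 0.0266, edgeR), and Pfkfb4 from 29.4, 30.7 and 39.0 CPM to 29.4, 34.0 and 51.2 (log2 0.25, SE 0.087, adjusted p = 0.0346, edgeR). All 4 overlapped between the ages, and Pfkfb4 did not pass without replicate 2 of 27 months (adjusted p = 0.0645, edgeR). With limma-voom neither Fbp2 nor Pfkfb4 passed (adjusted p = 0.0503 and 0.0569). Neither passed with the replicate block (adjusted p = 0.0862 and 0.089, edgeR), which across ages joins different mice of the same number. Gpi1 rose (0.13), and Phkg1 (-0.18) and Pygm (-0.15) fell.

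In the diaphragm 0 members passed in females by edgeR, where 1.61% of all genes passed, and DESeq2 and limma-voom also called 0. An unadjusted p below 0.05 (edgeR) was reached in females by 3 members and by 2285 of the 16193 genes tested. In males 0 rose and 3 fell, where 8.65% of all genes passed. Phkg1 fell from 39.2, 44.7 and 51.1 CPM to 12.4, 27.8 and 44.5 (log2 -0.64, SE 0.13, adjusted p = 0.00322, edgeR). Ppp1r3a fell from 480.0, 495 and 1118 CPM to 164, 420.4 and 539 (log2 -0.50, SE 0.15, adjusted p = 0.0327, edgeR). Ugp2 fell from 273, 340.4 and 738 CPM to 143, 298 and 360.3 (log2 -0.43, SE 0.14, adjusted p = 0.0445, edgeR). The highest values of the last 2 genes at 6 months came from replicate 2, a library with low Acta1, and the lowest at 27 months from replicate 8.

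With runs of sample numbers as a term, Phkg1 (log2 -0.42, adjusted p = 0.248, edgeR), Ppp1r3a (0.639) and Ugp2 (0.678) in male diaphragm did not pass. Without the 6 libraries Phkg1 passed, and Ppp1r3a and Ugp2 did not (adjusted p = 0.075 and 0.132, edgeR). They did not pass without replicate 2 of 6 months alone (0.149 and 0.205) or without replicate 8 of 27 months alone (0.0541 and 0.0799). Hk1 passed in addition without the 6 libraries (log2 0.36, adjusted p = 0.0102, edgeR). In females 0 members passed without the 6 libraries as well.

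Changes with age that differed from those of the gastrocnemius were tested as the interaction of muscle and age within a sex. In females Pfkfb3 (log2 difference of changes 1.66, SE 0.34, adjusted p = 0.000565, edgeR), Gpd2 (0.83, SE 0.20, adjusted p = 0.00563) and Bpgm (0.57, SE 0.12, adjusted p = 0.00131) differed between diaphragm and gastrocnemius, where 3.2% of all genes passed. Leaving out the libraries over 100 liver CPM left a single female diaphragm library at 6 months, so that setting cannot decide these 3 calls. Without the 6 diaphragm libraries of low Acta1 all 3 passed (adjusted p = 0.00468, 0.0032 and 0.000325, edgeR). In female diaphragm Pfkfb3 had 12.2, 16.5 and 30.8 CPM at 6 months and 14.8, 26.5 and 88.8 at 27 months (log2 0.76, adjusted p = 0.101, edgeR), while it fell in gastrocnemius. Bpgm also differed between soleus and gastrocnemius in females (0.45, SE 0.12, adjusted p = 0.0146, edgeR; 5.51% of all genes). Between tibialis anterior and gastrocnemius in females, Fbp2 (0.93, SE 0.24, adjusted p = 0.0275, edgeR) and Ldhb (-0.78, SE 0.17, adjusted p = 0.00524) differed, where 0.57% of all genes passed. Ldhb in female gastrocnemius had 60.2, 68.3 and 79.6 CPM at 6 months and 45.4, 69.7 and 93.3 at 27 months, which did not pass (log2 0.033, adjusted p = 0.832, edgeR).

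In males only Gbe1 passed such a test, between diaphragm and gastrocnemius (-0.53, SE 0.15, adjusted p = 0.0304, edgeR; 3.44% of all genes, beside 0.594% for soleus and 0.0% for tibialis anterior), and it did not pass without the 6 libraries (-0.37, adjusted p = 0.162) or with limma-voom (adjusted p = 0.07). With DESeq2-type size factors the share of genes with a positive difference among those that passed went from 55.9% to 44.8% in this comparison. Without those 6 libraries the muscle fits, which share an estimate of the spread, called 6 members in place of 3 between female diaphragm and gastrocnemius (8.24% of all genes), 5 in place of 1 for soleus (11.7%) and 4 in place of 2 for tibialis anterior (1.82%). In males they called 0 in place of 1 for diaphragm (2.68%) and 1 in place of 0 for soleus (0.883%), Phka1 (0.59, adjusted p = 0.0311). Gbe1 in male diaphragm had 92.9, 104 and 232 CPM at 6 months and 98.9, 128 and 162 at 27 months (log2 0.025, adjusted p = 0.933, edgeR).

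Females and males were compared within each muscle as the mean over the 6 ages. In gastrocnemius 13 members were higher and 10 lower in females (58.3% of all genes passed), and in tibialis anterior 11 were higher and 9 lower (47.8%). In soleus 3 were higher and 19 lower in females (30.9%), and in diaphragm 2 were higher and 7 lower (18.9%). The members' median log2 difference was -0.022 in gastrocnemius, -0.019 in tibialis anterior, -0.097 in soleus and -0.12 in diaphragm, beside 0.016, 0.0038, 0.016 and 0.0020 over all genes. Slow-fibre genes were higher in females in 11 of 11 in gastrocnemius and soleus, 10 of 11 in tibialis anterior and 3 of 11 in diaphragm, and 8, 10, 8 and 8 of 13 fast-fibre genes were lower. Their part in the members' sex differences was not tested.

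Fbp2 had the largest difference between the sexes in gastrocnemius. It lay at 15.6, 23.4 and 36.9 CPM in females (n = 52) and 8.22, 11.1 and 19.0 in males (n = 52), a log2 difference of 1.06 (SE 0.045, adjusted p = 6.24e-39, edgeR), and in tibialis anterior at 9.05, 20.8 and 31.2 CPM in females (n = 51) and 8.67, 11.8 and 20.4 in males (n = 51), a difference of 0.73 (SE 0.053). The ranges of the sexes overlapped in each muscle. In gastrocnemius Gpi1, the glucose phosphate isomerase, differed by -0.42 (SE 0.021), with medians of 689 CPM in females and 932 in males, Gpd2 by 0.35 (SE 0.026) and Pfkfb1 by 0.30 (SE 0.030).

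Pfkfb3 was lower in female tibialis anterior, with 46.1, 133 and 239 CPM in females and 45.5, 305 and 766 in males, a log2 difference of -1.03 (SE 0.13, adjusted p = 7.08e-11, edgeR). The male values spread widely and covered the female range. In the same muscle Pfkfb1 was higher in females by 0.49 (SE 0.038) and Ldhb by 0.38 (SE 0.054). In soleus Eno3 (-0.45, SE 0.044), Pfkfb1 (-0.44, SE 0.056), Pygm (-0.32, SE 0.037) and Ldha (-0.28, SE 0.037) were lower in females, with Eno3 medians of 350.1 CPM in females and 468 in males. These are means over the ages, and at 6 months Pfkfb1 in gastrocnemius had a lower median in females (22.8 CPM) than in males (27.2).

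In diaphragm Pfkfb3 was higher in females (log2 0.34, SE 0.10, medians 20.8 and 17.2 CPM), and Hk2 (-0.31), Pfkm (-0.27) and Pygm (-0.26) were lower. The 9 members called in diaphragm became 5 with limma-voom, 5 with runs of sample numbers and 0 without the libraries over 100 liver CPM, which leaves 1 female library at 6 months. The 9 members became 24 without the 6 libraries (31.7% of all genes passed), including the 9, with Pfkl (0.26), Eno1 (0.22), Slc2a1 (-0.25) and Ldhb (-0.21) among the added ones.

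**Figure D5:**
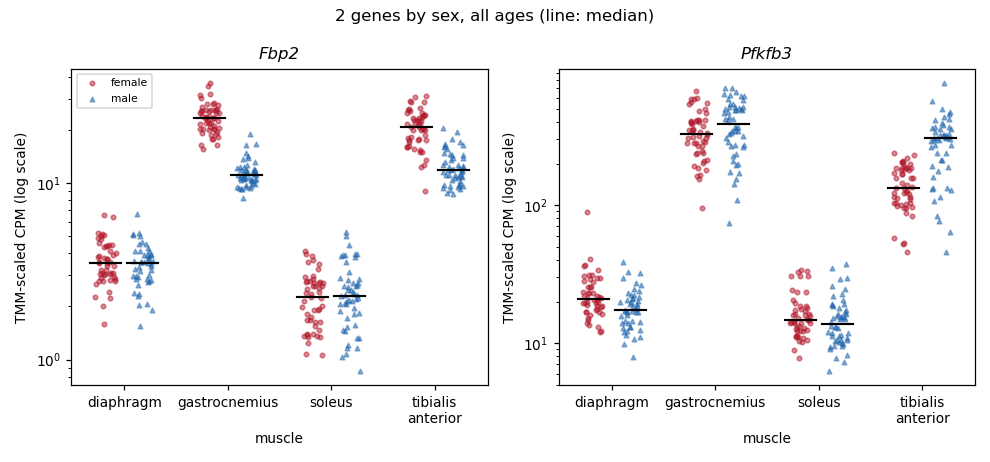
Level of Fbp2 and Pfkfb3 in each library (vertical log axis, TMM-scaled CPM) by muscle and sex, with the median of each group as a line. Female gastrocnemius and tibialis anterior lie above male ones for Fbp2 (medians 23.4 against 11.1 and 20.8 against 11.8), and male tibialis anterior lies above female for Pfkfb3 (305 against 133).

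A wider list of 64 genes of glucose and glycogen handling was followed beside the members, of which 62 or 63 were tested. At 27 against 6 months 8 rose and 12 fell in female gastrocnemius (29.3% of all genes passed) and 10 rose and 11 fell in male gastrocnemius (23.3%). Pcx, which makes oxaloacetate from pyruvate, fell in females (log2 -0.91), as did the alanine aminotransferase Gpt2 (-0.52), and Aldoc (0.87) and Eno2 (0.68) rose in males. In soleus 8 rose and 2 fell in females (18.8% of all genes passed) and 2 rose and 5 fell in males (2.85%). Stbd1, a glycogen-binding protein, rose in soleus of each sex (0.77 and 0.66) and in male tibialis anterior (0.51), and the lactate exporter Slc16a3 fell in male soleus (-1.52). Ppp1r3f (0.72) and Pgm5 (0.62) rose in female soleus and Pygb (0.47) in male soleus.

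In tibialis anterior 8 of the wider list rose and 12 fell in females (21.9% of all genes passed) and 4 rose and 7 fell in males (17.8%). Fbp1 (3.55, SE 0.89) and Hk3 (1.62, SE 0.44) rose in females. Fbp1 is known from liver, and liver transcripts summed to 1.33, 11.7 and 20.6 CPM (lowest, median, highest) at 6 months and 3.94, 66.6 and 571 at 27 months in female tibialis anterior. The part of liver transcripts in these rises was not tested. In males Adpgk rose (0.32) and Mlxipl fell (-0.29). In diaphragm 1 rose and 0 fell in females (Ppp1r3b, 0.74), and 1 rose and 4 fell in males (Ppp1r3f, 0.78, Slc2a12, -0.63, and Txnip, -0.57). Of all genes, 1.61% passed in female and 8.65% in male diaphragm.

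Between soleus and gastrocnemius the wider list split evenly in females, with 27 higher and 27 lower in soleus, and 25 were higher and 27 lower in males. Of all genes, 74.6% passed in females and 73.0% in males. The muscle-restricted AMP-kinase subunit Prkag3 (log2 -4.95 in females and -5.00 in males), Slc16a3 (-4.89 and -4.39), Gpt2 in females (-3.02) and the transporter Slc2a3 in males (-3.61) had the largest differences. Between the sexes 22 were higher and 24 lower in female gastrocnemius (58.3% of all genes passed), 16 and 19 in tibialis anterior (47.8%), 8 and 23 in soleus (30.9%) and 6 and 11 in diaphragm (18.9%). Slc2a3 was lower in females in gastrocnemius (-2.61) and tibialis anterior (-2.47), and Slc16a3 in soleus (-0.86).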

How the data were processed

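Total RNA of mouse muscle was sequenced in strand-specific, ribosomal RNA-depleted libraries. The authors deposited raw read counts per gene for each of 407 libraries, made in ArrayStudio (release not given in the sources used here) by alignment to mm10 with a RefSeq-based gene model of their own. How reads that match several places, such as pseudogenes of Gapdh, Eno1, Ldha or Pgk1, were counted is not given, so these levels carry that uncertainty. Here 633 of 25091 lines (0.0335% of counts) that repeat a symbol were left out. Libraries were grouped by their labels for muscle, sex and age.

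Low counts were removed by filterByExpr, library sizes were scaled by TMM (a trimmed mean of log ratios), and genes were tested with the quasi-likelihood test of edgeR 4.0.16 in R 4.3.3. P values were adjusted by Benjamini-Hochberg over all genes tested and called below 0.05. Ages were compared within each muscle and sex, muscles within each sex and sexes within each muscle. Levels are TMM-scaled CPM over all libraries. Levels per length use the exon length of GENCODE protein-coding transcripts, gene positions are from that annotation (GRCm38), and promoters are from RefSeq (GRCm38.p6).

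No pair of libraries was identical over all genes. At these depths the spread between libraries, not counting error, sets the precision of the values. Scripts were tested on simulated data. Some genes of the wider list are not reported here by name. The members and all lists were chosen with earlier results of these data known.

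Members are named with values by size: up to 4 per muscle and sex for age, up to 4 per muscle for sex, every interaction called, and the 6 largest differences and the isozyme families between soleus and gastrocnemius. Alternatives were limma-voom 3.58.1, DESeq2 1.42.0, DESeq2-type size factors, no filter on low counts, a fold above 1.5 as well, Bonferroni adjustment, the replicate number as a block, runs of sample numbers as a term, and leaving out libraries over 100 liver CPM. Chosen after seeing the data were leaving out 2 libraries over 10000 liver CPM, 6 diaphragm libraries under 2000 Acta1 CPM, and single libraries that stood apart. Marker lists were fast and slow fibre, liver, white and brown adipocyte, blood, macrophage, fibroblast, endothelial, Schwann cell and mesothelium genes.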

Additional observations from a re-analysis of the deposited data

Results flagged for a closer look

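Libraries were compared within each group for the members' share of counts and, at 6 and 27 months, for the members named with age. Of 102 such tests, 13 flagged a library far from the rest, and some libraries were flagged more than once. Chance would give about 5% of tests if they were independent, which tests on the same libraries are not. In diaphragm the share of counts on the 37 genes was low in female 6 months replicate 2 (0.532%, others 1.002% to 1.345%), female 21 months replicate 0 (0.570%, others 1.135% to 1.391%), female 27 months replicate 0 (0.435%, others 1.045% to 1.277%) and male 6 months replicate 2 (0.428%, others 1.274% to 1.414%). These 4 are among the 6 libraries with low Acta1. The share was high in female gastrocnemius 27 months replicate 0 (4.529%, others up to 3.542%), male gastrocnemius 6 months replicate 6 (4.213%, others up to 3.712%), male gastrocnemius 12 months replicate 7 (5.084%, others up to 3.531%) and female tibialis anterior 21 months replicate 0 (3.624%, others up to 3.242%).

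In male diaphragm replicate 2 of 6 months was the highest for Ppp1r3a (1118 CPM, others up to 503) and Ugp2 (738 CPM, others up to 381). Replicate 8 of 27 months was the lowest for Ppp1r3a (164 CPM, others from 359.5) and Ugp2 (143 CPM, others from 247). In male tibialis anterior replicate 2 of 27 months was the highest for Slc2a1 (16.5 CPM, others up to 12.2).

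Changes with age differed between groups for 9 combinations of gene and comparison by the interaction test of edgeR. Between female diaphragm and gastrocnemius the log2 difference of changes was 1.66 for Pfkfb3, 0.83 for Gpd2 and 0.57 for Bpgm. Between female soleus and gastrocnemius it was 0.45 for Bpgm. Between female tibialis anterior and gastrocnemius it was 0.93 for Fbp2 and -0.78 for Ldhb. Between male diaphragm and gastrocnemius it was -0.53 for Gbe1. Between females and males it was 0.71 for Pfkfb1 in gastrocnemius and 0.53 in tibialis anterior.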

How the results depend on the processing

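Counts below are of members called, as main value and value under an alternative, and no named member turned its direction. Most are not set beside the share of all genes under the alternative. They describe the processing and are not results about the members. At 27 against 6 months the 3 of male diaphragm became 1 with limma-voom, 1 with the replicate block, 0 with runs of sample numbers, 5 without libraries over 100 or over 10000 liver CPM, and 1 in each run that left out a single library (1 to 1; replicate 8 of 27 months, replicate 2 of 6 months). With a fold above 1.5 as well, and with Bonferroni adjustment, the counts became 1 and 0 in male diaphragm, 2 and 7 of 21 in female gastrocnemius, 0 and 8 of 22 in male gastrocnemius, 0 and 1 of 7 in female soleus, 0 and 1 of 4 in male soleus, 1 and 1 of 6 in female tibialis anterior and 0 and 0 of 7 in male tibialis anterior. The 4 of male soleus became 2 with the replicate block and 2 without libraries over 100 liver CPM. Without a single library that stood apart, female gastrocnemius had 24, male gastrocnemius 21 and male tibialis anterior 5.

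Between muscles the fold limit left 15 of 35 (female) and 14 of 35 (male) for soleus against diaphragm and 3 of 23 and 4 of 20 for tibialis anterior against gastrocnemius. For the sexes, fold limit and Bonferroni left 0 and 0 of 9 in diaphragm, 1 and 14 of 23 in gastrocnemius, 0 and 10 of 22 in soleus and 2 and 12 of 20 in tibialis anterior. The 9 of diaphragm became 5 with limma-voom, 5 with runs of sample numbers and 24 without the 6 libraries of low Acta1. Leaving out libraries over 100 liver CPM leaves 1 female diaphragm library at 6 months, so that setting cannot decide these calls. The cause of these shifts was not tested.

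Where age changes were compared between muscles, the 3 of female diaphragm became 6 without the 6 libraries. The 1 of female soleus became 2 with DESeq2, DESeq2-type size factors or the replicate block, 9 without libraries over 100 liver CPM and 5 without the 6. The 2 of female tibialis anterior became 6 and 4 in these last settings. The 1 of male diaphragm became 2 with DESeq2, DESeq2-type size factors, no filter or the replicate block, 0 with limma-voom, 3 without libraries over 100 or over 10000 liver CPM and 0 without the 6. The 0 of male soleus became 1 with DESeq2, the replicate block or without the 6. Without the 6 the share of all genes that passed moved as well. In females it went from 3.2% to 8.24% for diaphragm, from 5.51% to 11.7% for soleus and from 0.57% to 1.82% for tibialis anterior. In males it went from 3.44% to 2.68% for diaphragm and from 0.594% to 0.883% for soleus. For the interaction of sex and age, 0 in soleus became 2 with DESeq2 and 1 in tibialis anterior became 0 without libraries over 100 liver CPM.

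Same-numbered libraries of different muscles deviated together in the limb muscles but not in diaphragm (median correlations -0.0070 to 0.061). For male gastrocnemius and tibialis anterior the median correlation was 0.36, and 36 of 51 correlated best with their own number. Pairs above 0.1 numbered 49 of 51 there and 33 of 51 for female gastrocnemius and soleus. The labels do not name the mouse, so the numbers were not taken to pair the mice. Limb libraries of the same number may still share a mouse, which the main muscle comparisons do not take into account. With the replicate block 6 named members lost and 1 gained the call, over the age and muscle fits together. Within the age fits the block joins libraries of the same number at different ages. These come from different mice, so a call lost there does not bear on pairing.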
